A study of Mus musculus with 16 samples.

Results

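The collagen gene family was followed in 16 single-colour Agilent microarrays of mouse retina and retinal pigment epithelium (RPE), the pigmented cell layer behind the photoreceptors. Members were all non-control probes whose RefSeq accession belongs to a gene symbol made of Col, a number, the letter a and a number, which gave 63 of the 55681 probes and 43 of the 20660 named genes. The 4 groups were nm3342 mutants at 1 year (P365), wild types at 1 year, nm3342 mutants at 1 month (P30) and wild types at 1 month, with 4 arrays each. All 16 samples carry the strain background C57Bl/6J and are labelled male. Every RNA sample combined retina and RPE. The study presents the nm3342 mouse as a model for detachment of the serous kind, where fluid lifts the retina off the RPE. The gene altered by nm3342 is not stated in the sources used here, and its level could not serve to check the labels.

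Collagens are triple-helical proteins of the extracellular matrix, each built from chains that the Col genes encode. Fibrillar collagens form the fibrils of sclera, choroid and scars. Basement membrane collagen of type IV forms the sheets under the RPE, around capillaries and around the lens. Fibril-associated collagens coat fibrils such as those of the vitreous, and short-chain collagens form lattices, as in the membrane below the corneal endothelium. The 43 genes fall into 8 classes: 11 fibrillar, 6 basement membrane, 8 fibril-associated, 3 short-chain, 6 beaded filament, 4 transmembrane, 2 multiplexin and 3 anchoring fibril and other genes.

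Levels are log2 of the processed signal minus the log2 of the 75th percentile of its array, so that 0 is that percentile, and a level says nothing about another gene's level. Signal was well above background on 82.1% to 89.6% of the non-control spots, and the 75th percentile ran from 603 to 994. Of the 43 genes, 39 had a probe well above background on at least 4 arrays and were tested among 19022 genes, and all 39 were well above background on all 16 arrays. Col13a1, Col28a1, Col6a5 and Col6a6 were well above background on at most 1 array and were not tested. The RefSeq table also lists Col12a1, which had no probe. The rod genes Sag, Gnat1, Pde6b and Nrl and the RPE genes Rpe65, Lrat, Rgr and Rdh5 were detected on all 16 arrays, while the RPE gene Best1 was well above background on 1 array. Although all samples are labelled male, Xist was high and the Y-linked gene Ddx3y low on 3 arrays: replicates 2 and 3 of the 1-month mutants, and replicate 1 of the 1-year mutants. Changes are therefore also given without these arrays of female pattern. The arrays sat on 2 slides, and both slides held 2 arrays from each group. Array row was not balanced between genotypes. Among the mutants, only replicate 2 at 1 month and replicate 3 at 1 year sat in row 1, the others in row 2. Among the wild types, only replicate 1 at 1 month and replicate 2 at 1 year sat in row 2, the others in row 1.

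At 1 month the comparison asked how mutant tissue differs from age-matched wild-type tissue early in life. Of the 39 collagen genes 5 were higher in the mutant at a Benjamini-Hochberg adjusted p under 0.05 in limma and 0 were lower. Over all genes tested, 2.72% were called, 2.03% higher and 0.694% lower. The 5 were the fibrillar genes Col3a1, Col5a1 and Col5a2, the fibril-associated gene Col14a1 and the short-chain gene Col8a1. The median log2 change of the 39 genes was 0.10, against 0.02 over all genes. The mutant arrays lay wholly above the wild-type arrays for 10 collagen genes and wholly below for 1, where 5.85% and 2.69% of all genes did. Fewer cells of a type and less RNA per cell cannot be told apart in these bulk samples.

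Among the fibrillar genes, Col3a1 encodes the chain of type III collagen, which joins type I in the fibrils of elastic tissue. Its level was 3.15, 3.22, 3.04 and 2.53 on mutant arrays 1 to 4 at 1 month, against 0.08, 0.91, 0.55 and 0.99 on the wild-type arrays. The groups lay far apart, with the lowest mutant array well above the highest wild-type one. Col3a1 rose by 2.35 ± 0.21 on the log2 scale (5.11-fold; SE, n = 4; limma adjusted p = 5.07e-05). The change was 2.38 on slide 1 and 2.33 on slide 2, and 2.21 without the arrays of female pattern (limma adjusted p = 0.00664).

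Col5a1 and Col5a2 encode chains of type V collagen, which starts fibrils and limits their width. Col5a2 lay at -2.34, -2.47, -2.42 and -2.61 on the mutant arrays and at -3.97, -3.55, -3.00 and -3.73 on the wild-type arrays. No mutant array reached down to the wild-type range, where replicate 3 was the highest. Col5a2 rose by 1.1 ± 0.21 (limma adjusted p = 0.0134). Col5a1 lay at -0.30, -0.24, -0.35 and 0.04 on the mutant arrays and at -1.2, -1.04, -0.72 and -1.2 on the wild-type arrays, again without overlap. It rose by 0.83 ± 0.16 (limma adjusted p = 0.0146). Col5a3, the third type V chain, lay at -0.93 to -0.54 in the mutant and -1.44 to -1.12 in wild type and did not pass (0.57 ± 0.17, limma adjusted p = 0.0981). Without the arrays of female pattern the change of Col5a2 was 1.08 (limma adjusted p = 0.152) and that of Col5a1 0.91 (limma adjusted p = 0.0973), with 2 mutant arrays left.

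Type I collagen, the most abundant fibril former, did not pass at 1 month although its arrays did not overlap. Col1a1 lay at 4.70, 4.41, 4.54 and 4.89 on the mutant arrays and at 3.10, 3.57, 3.85 and 3.22 on the wild-type arrays (1.2 ± 0.34, limma adjusted p = 0.0834). Col1a2 lay at 6.14, 5.74, 5.80 and 6.17 on the mutant arrays and at 4.50, 5.07, 5.21 and 4.72 on the wild-type arrays (1.09 ± 0.31, limma adjusted p = 0.0904). Every mutant array was above every wild-type array for both chains. When only the 8 arrays of the comparison were fitted, both passed (limma adjusted p = 0.0301 and 0.0403). Of the 11 fibrillar genes, 3 were called, 6 did not overlap in the higher direction and 1 in the lower, and the class median was 0.57. Over all genes tested, 2.03% were called higher, and 5.85% and 2.69% did not overlap in the higher and the lower direction. The fibrillar gene without overlap in the lower direction was Col27a1 (-0.60 ± 0.20, limma adjusted p = 0.165), a gene of cartilage. The other fibrillar genes, Col2a1, Col11a1, Col11a2 and Col24a1, had changes of -0.08 to 0.25 and did not pass.

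**Figure D1:**
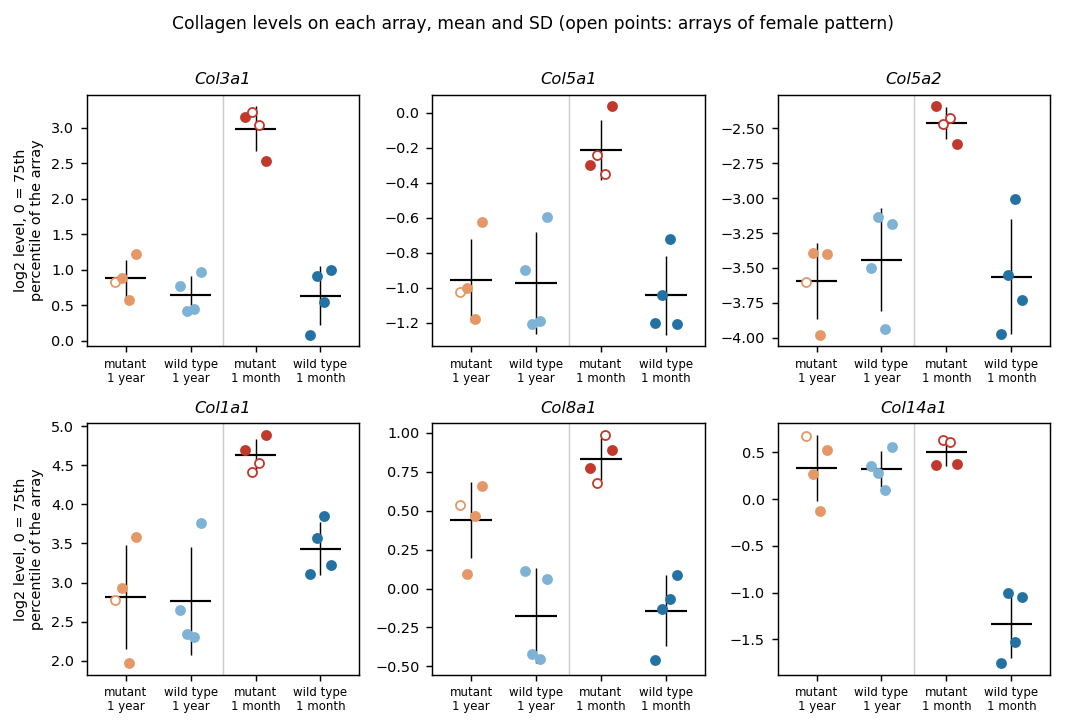
Levels of 6 collagen genes on each array (log2, 0 = 75th percentile of the array), with the group mean as a bar and the SD as a line, 4 arrays per group; open points are arrays of female pattern. Mutant 1-month arrays stand above all others for Col3a1, Col5a1 and Col5a2, while for Col14a1 the wild-type 1-month arrays stand below all others.

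The start regions of the responding fibrillar and short-chain genes and of Col1a2 are shown to let their letters be compared, since the levels of all 4 genes were higher in the mutant at 1 month without overlap. Each is the RefSeq window of GRCm38.p6 from 250 bases before to 50 after the annotated start, read 5′ to 3′ on the gene's strand. Capitals mark 3 motifs searched on both strands. The first is TATAAA (read as TTTATA on the opposite strand), the second is CCAAT (opposite strand ATTGG), and the third is GGGCGG (opposite strand CCGCCC). Col3a1 is at chr1:45311288-45311587 on the plus strand, Col5a1 at chr2:27886175-27886474 (plus), Col8a1 at chr16:57754688-57754987 (minus) and Col1a2 at chr6:4505368-4505667 (plus).
Col3a1: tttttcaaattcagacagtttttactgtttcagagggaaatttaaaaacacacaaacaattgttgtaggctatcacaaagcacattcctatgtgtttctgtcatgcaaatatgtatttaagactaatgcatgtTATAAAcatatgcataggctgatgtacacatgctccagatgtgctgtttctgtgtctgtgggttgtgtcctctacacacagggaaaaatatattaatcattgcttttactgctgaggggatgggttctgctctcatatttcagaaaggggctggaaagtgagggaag
Col5a1: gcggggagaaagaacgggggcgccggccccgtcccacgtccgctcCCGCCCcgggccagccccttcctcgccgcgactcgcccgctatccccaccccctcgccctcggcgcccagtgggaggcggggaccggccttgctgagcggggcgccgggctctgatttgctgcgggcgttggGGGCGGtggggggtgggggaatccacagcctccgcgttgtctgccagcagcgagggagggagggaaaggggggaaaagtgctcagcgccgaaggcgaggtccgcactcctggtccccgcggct
Col8a1: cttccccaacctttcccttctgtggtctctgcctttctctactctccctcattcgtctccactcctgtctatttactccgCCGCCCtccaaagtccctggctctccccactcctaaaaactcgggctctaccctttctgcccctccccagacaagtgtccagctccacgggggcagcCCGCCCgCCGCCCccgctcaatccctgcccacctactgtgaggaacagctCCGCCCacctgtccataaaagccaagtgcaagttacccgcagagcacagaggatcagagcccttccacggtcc
Col1a2: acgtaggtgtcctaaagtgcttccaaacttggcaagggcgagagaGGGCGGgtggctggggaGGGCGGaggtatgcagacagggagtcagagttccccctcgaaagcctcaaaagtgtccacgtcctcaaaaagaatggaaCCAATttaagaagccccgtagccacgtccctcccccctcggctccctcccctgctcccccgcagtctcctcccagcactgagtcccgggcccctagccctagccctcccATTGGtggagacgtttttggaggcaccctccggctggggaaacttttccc
No motif of the 3 stood in all 4 windows, and no matches overlapped. Col3a1 held the first motif once. Col5a1 held the third motif 2 times and Col8a1 4 times, without the first and the second. Col1a2 held the third and the second motif, 2 times each. On either strand the first motif stood in 13.6%, the second in 37.4% and the third in 35.7% of all 32851 RefSeq windows of this length. Among the 38 windows of 35 collagen genes the counts were 5, 13 and 23. These matches describe letters in the window and show no binding. Col5a2 and Col14a1 are named only.

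Among the fibril-associated genes, Col14a1 encodes the chain of type XIV collagen, which binds the surface of fibrils. It lay at 0.37, 0.63, 0.61 and 0.38 on the mutant arrays at 1 month, against -1.75, -1.01, -1.52 and -1.05 on the wild-type arrays. Both ranges were narrow beside the gap between them. Col14a1 rose by 1.83 ± 0.19 (3.56-fold, limma adjusted p = 0.00016), with 1.88 on slide 1 and 1.78 on slide 2 and 1.71 without the arrays of female pattern (limma adjusted p = 0.00963). A second Col14a1 probe lay at -2.58, -2.36, -2.42 and -2.58 on the mutant arrays and at -2.86, -3.05, -3.35 and -3.48 on the wild-type arrays. It pointed the same way without overlap but did not pass (0.70, limma adjusted p = 0.0798 over all probes). The remaining 7 genes of the class, among them Col16a1, Col19a1, Col20a1 and Col22a1, were not called. Col9a3, a chain of the type IX collagen of vitreous and cartilage, did not overlap (0.56 ± 0.16, limma adjusted p = 0.0985), and Col9a1 had the lowest change of the class (-0.44 ± 0.17, limma adjusted p = 0.218).

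Among the short-chain genes, Col8a1 and Col8a2 encode type VIII collagen, which forms a hexagonal lattice in the membrane below the corneal endothelium and around vessels. Col8a1 lay at 0.78, 0.68, 0.99 and 0.89 on the mutant arrays and at -0.46, -0.14, -0.06 and 0.09 on the wild-type arrays at 1 month. The 4 mutant arrays lay close together and above every wild-type array. Col8a1 rose by 0.98 ± 0.16 (limma adjusted p = 0.00536), with 1.08 on slide 1 and 0.87 on slide 2 and 0.97 without the arrays of female pattern (limma adjusted p = 0.074). Its partner Col8a2 did not pass (0.39 ± 0.19, limma adjusted p = 0.347), nor did Col10a1, the collagen of hypertrophic cartilage (-0.43 ± 0.20, limma adjusted p = 0.317).

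All 6 basement membrane genes had changes below 0 at 1 month, with a median of -0.46, and 0 were called. They ran from -0.70 for Col4a1 to -0.21 for Col4a3. Mutant replicate 4 was the highest mutant array for all 6 genes. Col4a1 lay at -0.19, 0.51, -0.05 and 1.53 on the mutant arrays and at 0.37, 1.61, 1.22 and 1.40 on the wild-type arrays. Mutant replicate 4 was as high as the wild types and wild-type replicate 1 was as low as the mutants, so the groups overlapped. Without mutant replicate 4, Col4a2 and Col4a4 fell by 1.02 and 0.72 and passed (limma adjusted p = 0.0198 and 0.0104). The class median was 0.04 on slide 1 and -0.98 on slide 2, and -0.17 without the arrays of female pattern. Lens RNA differed between these arrays. The summed signal of 6 lens genes (75th percentile of the array = 1) reached 61.2, 397, 163 and 1056 in the 4 mutants, in replicate order, beside 530, 660, 663 and 479 in the wild types. Mutant replicate 1 was lowest for the lens sum and for Col4a1, Col4a2 and Col4a3, while Col4a4, Col4a5 and Col4a6 were lowest on mutant replicate 3. Wild-type replicate 1, the lowest wild-type array for Col4a1, Col4a2, Col4a3, Col4a5 and Col4a6, had a higher lens sum than wild-type replicate 4. The part of lens tissue was not tested.

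The other classes held no called gene at 1 month. Among the beaded filament genes of type VI collagen, Col6a2 did not overlap (0.91 ± 0.24, limma adjusted p = 0.0613), while Col6a1 and Col6a3, whose products pair with it, had changes of 0.24 and 0.52. Col6a4 had -0.48. Among the multiplexins, Col18a1, the source of endostatin, had a change of 0.50 ± 0.21 (limma adjusted p = 0.261) and Col15a1 one of -0.05. The transmembrane genes Col23a1 and Col25a1 and the anchoring fibril gene Col7a1 had changes of 0.04, -0.04 and -0.14, and Col26a1 of 0.23. The 95% interval of Col23a1 ran from -0.14 to 0.22.

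Genes that make, modify and bind collagen were read from 6 lists. Of 21 genes of collagen modification and folding, 3 were higher and 0 lower, with a list median of 0.08. They were Serpinh1, the procollagen chaperone HSP47 (1.0 ± 0.15), P4hb, the beta subunit of prolyl 4-hydroxylase (0.55 ± 0.09), and Plod1, a lysyl hydroxylase (0.48 ± 0.10). Serpinh1 lay at 2.09, 1.86, 2.01 and 2.14 on the mutant arrays and at 0.59, 1.15, 1.1 and 1.27 on the wild-type arrays, without overlap (limma adjusted p = 0.00298). The hydroxylase subunits P4ha1 and P4ha2 did not pass (0.48 and -0.18). Of 12 genes of procollagen cleavage and crosslinking, 2 were higher, Pcolce, which speeds removal of the C-propeptide (0.83 ± 0.19), and the crosslinking oxidase Loxl2 (0.50 ± 0.11), while the proteases Bmp1 and Tll1 did not pass (-0.04 and -0.05).

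Of 9 receptors and uptake genes, 2 were higher: Ddr2, a receptor kinase for fibrillar collagen (0.67 ± 0.14), and Mrc2, which takes up collagen fragments (0.79 ± 0.18). The integrin chains Itga1 and Itga2 did not pass (0.23 and 0.71). Itga2 was dim, at -6.55 to -5.11 on the mutant arrays and -7.24 to -5.87 on the wild-type arrays. The lowest level well above background on those wild-type arrays was -6.67 to -5.96. Of 9 degradation genes the membrane protease Mmp14 was higher (0.80 ± 0.16), while Mmp2 and Mmp8 did not pass (0.66 and -0.13). Of 12 fibril-binding genes the proteoglycan gene Lum (1.17 ± 0.27) and Fn1, fibronectin (0.63 ± 0.16), were higher, while Dcn and Bgn did not pass (-0.01 and 0.35). Of 12 basement membrane partners Nid2, a linker of laminin and type IV collagen, was higher (0.87 ± 0.15), while Lama1 and Lama2 did not pass (-0.07 and 0.09). In all 11 of 75 partners were called higher and 0 lower (14.7%, beside 2.72% of all genes called). The limma adjusted p of the genes called higher ran up to 0.0478, that of Fn1.

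Markers of other cells were read in the same 1-month comparison, where 2.72% of all genes were called. Of 5 macrophage and microglia genes 4 were called higher, and their summed signal was 9.09 to 10.1 on the mutant arrays and 5.08 to 5.91 on the wild-type arrays, without overlap. Of 4 RPE genes 1 was called higher, with sums of 49.3 to 73.1 in the mutant and 35.8 to 55.0 in wild type. Of 6 pigment cell genes 4 were called higher, with sums of 57.0 to 91.1 in the mutant and 33.0 to 59.9 in wild type. Of 8 fibroblast genes only Dpt was called higher, 3 had changes below 0, and the list median was 0.17. The fibroblast sums of 8.99 to 10.03 in the mutant overlapped those of 7.29 to 9.51 in wild type. Of 9 skeletal muscle genes Acta1 was called higher, with sums of 45.3 to 103 in the mutant and 20.8 to 57.6 in wild type, and 3 erythrocyte genes summed to 184 on mutant replicate 4 and to at most 21.8 on the other 1-month arrays. None of the endothelium, pericyte, lens and cornea genes was called in this comparison. The part of these cells in the collagen changes was not tested.

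At 1 year the same comparison asked how mutant tissue differs late. No collagen gene was called in limma (0 of 39), where 0.857% of all genes were. At an unadjusted limma p under 0.05, 3 collagen genes were higher and 1 lower. The share of all genes at that threshold was not taken, so these counts cannot be set beside the 0.857%. The median change of the 39 genes was 0.02, against -0.01 over all genes. For 1 gene the mutant arrays lay wholly above the wild-type arrays and for 1 wholly below, against 4.39% and 3.44% of all genes. The log2 changes of the 11 fibrillar genes ran from -0.15 to 0.33.

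Col3a1 lay at 0.82, 0.89, 0.58 and 1.22 on the 1-year mutant arrays and at 0.77, 0.42, 0.44 and 0.97 on the wild-type arrays. The groups overlapped, and all 8 arrays lay well below the 1-month mutants. Its change was 0.23 ± 0.21 (limma adjusted p = 0.76), with a 95% interval of -0.23 to 0.68. Col14a1 lay at 0.67, 0.27, -0.13 and 0.53 on the mutant arrays and at 0.35, 0.27, 0.10 and 0.56 on the wild-type arrays, a change of 0.01 ± 0.19 (limma adjusted p = 0.989). Here both genotypes lay near the level of the 1-month mutants. The second Col14a1 probe had -0.45 (limma unadjusted p = 0.0219, limma adjusted p = 0.461 over all probes). Col5a1, Col5a2, Col1a1 and Col1a2 had changes of 0.02, -0.15, 0.05 and -0.04, and for each the groups overlapped.

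Col8a1 came nearest to the threshold at 1 year. It lay at 0.54, 0.10, 0.47 and 0.66 on the mutant arrays and at 0.12, -0.42, -0.45 and 0.06 on the wild-type arrays. Mutant replicate 2 fell among the wild types, and the other mutant arrays lay above all of them. The change was 0.61 ± 0.16 (limma adjusted p = 0.097), and it passed with slide as a block (limma adjusted p = 0.0223). Col2a1, the main collagen of the vitreous, was the gene without overlap in the higher direction, at 1.79 to 2.11 in the mutant and 1.61 to 1.70 in wild type (0.33 ± 0.10, limma adjusted p = 0.186). Col10a1 was the one in the lower direction, at -1.71 to -1.27 in the mutant and -1.27 to -0.36 in wild type (-0.64 ± 0.20, limma adjusted p = 0.178). Col9a3 had 0.49 ± 0.16 (limma adjusted p = 0.223), beside 0.56 at 1 month.

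Col17a1, a transmembrane collagen of the hemidesmosomes that anchor epithelia, varied more than any other collagen gene, and it varied within groups. It lay at 0.81, 3.34, 0.90 and -0.47 on the 1-year mutant arrays and at 1.91, 0.33, -2.65 and 0.83 on the 1-year wild-type arrays. Mutant replicate 2 was the highest of all arrays and wild-type replicate 3 the lowest, and the change did not pass (1.04 ± 0.94, limma adjusted p = 0.75). Its change was 3.28 on slide 1 and -1.21 on slide 2. At 1 month Col17a1 lay at -0.89, -0.27, -1.86 and 0.56 on the mutant arrays and at -1.57, -0.54, 0.63 and -1.40 on the wild-type arrays, and did not pass (0.10 ± 0.94). The summed signal of 4 cornea and conjunctiva genes moved with it. At 1 year it was 176, 653, 164 and 60.8 on the mutant arrays and 353, 117, 11.5 and 183 on the wild-type arrays, so that the same 2 arrays were highest and lowest. The part of cornea and conjunctiva tissue was not tested.

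**Figure D2:**
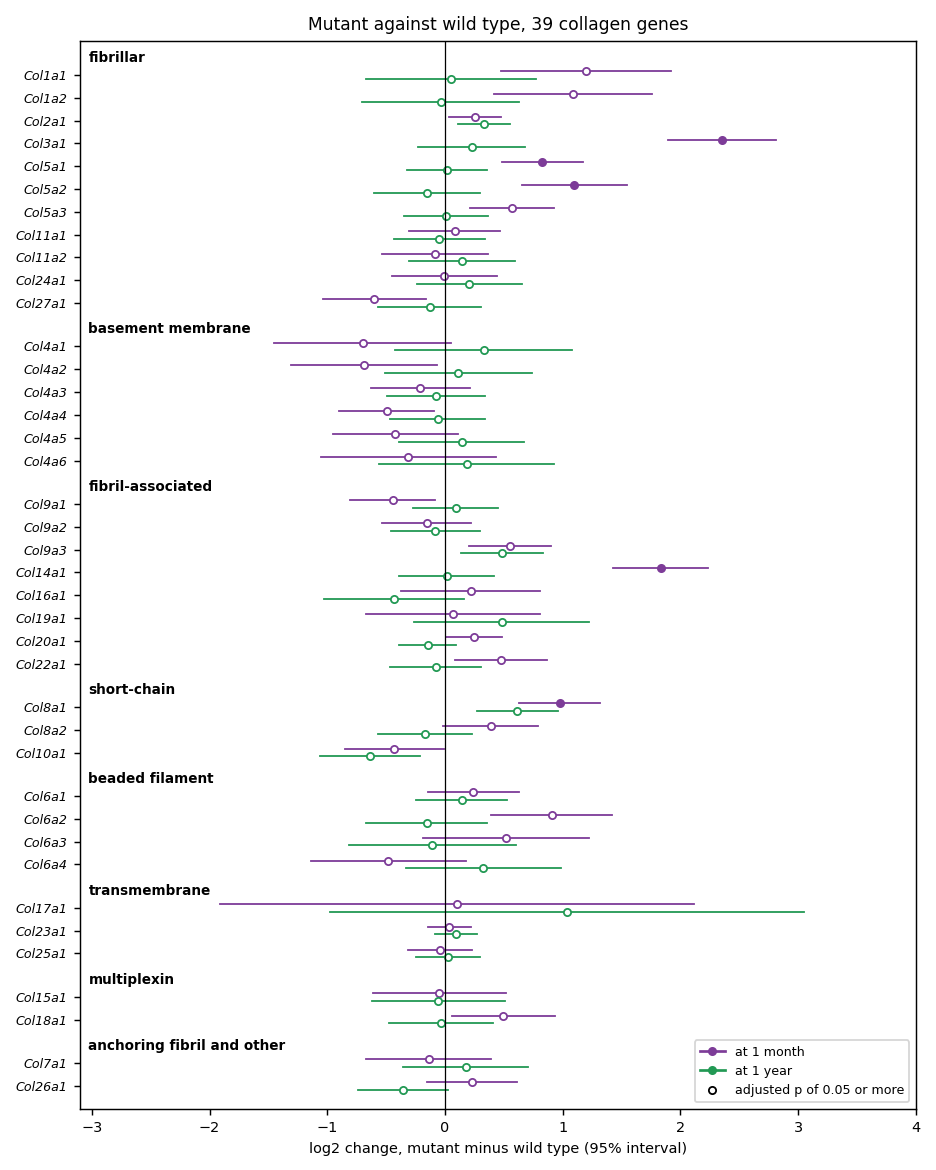
Log2 change of mutant over wild type for the 39 tested collagen genes by class, at 1 month (purple) and at 1 year (green), with 95% intervals from limma; filled points passed an adjusted p of 0.05. The 5 filled points are at 1 month and lie to the right of 0, and the interval of Col17a1 is the widest at both ages.

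Of the 75 collagen partners tested, 1 was called at 1 year (1.33%, beside 0.857% of all genes), the basement membrane proteoglycan gene Agrn (0.48 ± 0.09, limma adjusted p = 0.0258). Serpinh1 lay at 1.19, 1.36, 1.08 and 1.57 on the mutant arrays and at 1.58, 1.41, 1.91 and 1.63 on the wild-type arrays, and did not pass (-0.33 ± 0.15). The first 2 genes of each list, named above, had changes of -0.48 (P4ha1) to 0.45 (Itga2) and did not pass. Itga2 was dim here too, at -7.05 to -5.05 in the mutant and -7.41 to -5.79 in wild type. Of the 4 rod genes Gnat1 was called lower (-0.33 ± 0.06, limma adjusted p = 0.0246), and Nrl (-0.31) and Pde6b (-0.34) did not overlap in the lower direction, while Sag overlapped (0.12). Of 5 macrophage genes 1 was called higher and of 6 pigment cell genes 0. Macrophage sums were 10.9 to 12.3 in the mutant and 7.99 to 10.3 in wild type, and pigment cell sums 44.8 to 64.2 in the mutant and 71.2 to 106 in wild type. Lens sums differed between replicates, at 7.73, 6.88, 369 and 611 on the mutant arrays and 1.11 to 80.4 on the wild-type arrays. The part of these cells was not tested.

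The difference between the genotype effects, at 1 year minus at 1 month, was tested as an interaction in the same fit. It was called for 2 of the 39 genes, both lower, where 0.279% of all genes were called lower and 0.421% in either direction. These were Col3a1 (-2.13 ± 0.30, limma adjusted p = 0.00678) and Col14a1 (-1.82 ± 0.27, limma adjusted p = 0.0087). Col5a2 (-1.25 ± 0.30, limma adjusted p = 0.0843) and Col5a1 (-0.81 ± 0.23, limma adjusted p = 0.15) did not pass. For Col8a1 the difference was -0.36 ± 0.23 (limma adjusted p = 0.66), with a 95% interval of -0.85 to 0.13. Without the arrays of female pattern the values were -1.96 for Col3a1 (limma adjusted p = 0.115) and -1.81 for Col14a1 (limma adjusted p = 0.0768), and neither passed. Of the lists of partners, Serpinh1 (-1.32 ± 0.21) and Nid2 (-1.08 ± 0.21) were called lower, and the first 2 genes of each list had -0.96 (P4ha1) to 0.48 (Lama1), with none called. Of the markers, 1 of 4 rod genes (Gnat1, -0.55), 1 of 5 macrophage genes and 2 of 6 pigment cell genes were called lower, and their part was not tested.

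The comparisons of 1 year with 1 month asked what changed with age in each genotype. They share arrays with the comparisons above, and their values are given side by side. In the mutant 10 of 39 collagen genes were called, 1 higher and 9 lower, where 6.7% of all genes were called, 3.77% higher and 2.93% lower. Their median change was -0.30, against -0.05 over all genes. The 1-year arrays lay wholly below the 1-month arrays for 11 collagen genes and wholly above for 1, against 6.4% and 7.41% of all genes. In wild type 9 of 39 were called, 3 higher and 6 lower, where 12.4% of all genes were called, 7.31% higher and 5.05% lower. Their median change was -0.15, against -0.03 over all genes. Without overlap were 6 genes in the lower and 3 in the higher direction, against 9.71% and 9.17% of all genes. For each called gene of either genotype both slides gave the same sign. Without the arrays of female pattern 3 of the mutant calls were kept, those of Col3a1, Col5a3 and Col26a1, with 3 mutant arrays left at 1 year and 2 at 1 month. Of the rod genes Sag, Gnat1, Pde6b and Nrl, 3 were called lower with age in the mutant, Gnat1 (-0.39), Nrl (-0.41) and Pde6b (-0.48), and 0 in wild type. Markers of macrophages were called higher with age (2 of 5 in the mutant and 4 of 5 in wild type). Pigment cell markers were called lower in the mutant (2 of 6) and higher in wild type (3 of 6). Their part in the collagen changes was not tested.

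In the mutant 6 of the 11 fibrillar genes fell with age, where 2.93% of all genes were called lower, and the class median was -0.74. Col3a1 fell by 2.11 ± 0.21 (limma adjusted p = 3.42e-05), Col5a2 by 1.13 ± 0.21 (0.00422) and Col5a1 by 0.74 ± 0.16 (0.0111). In wild type these genes had 0.02, 0.12 and 0.07, and none passed. Col1a1 fell in the mutant by 1.82 ± 0.34 (limma adjusted p = 0.00442), to 2.77, 2.93, 1.97 and 3.58 at 1 year, against 4.41 to 4.89 at 1 month. Mutant replicate 4 was the highest and replicate 3 the lowest at 1 year, and all 4 lay below the 1-month arrays. In wild type Col1a1 lay at 2.64, 2.34, 2.30 and 3.77 at 1 year and did not pass (-0.67 ± 0.34, limma adjusted p = 0.222).

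Col1a2 fell in the mutant by 1.19 ± 0.31 (limma adjusted p = 0.0343), with 4.76, 4.87, 3.98 and 5.49 at 1 year and 5.74 to 6.17 at 1 month. In wild type it lay at 4.74, 4.51, 4.32 and 5.68 at 1 year, with a change of -0.07. The Col1a2 call was kept in 1 of 8 fits that left out 1 array. Col5a3 fell in both genotypes. It lay at -2.07, -1.87, -2.52 and -1.80 on the 1-year mutant arrays and at -0.82, -0.54, -0.81 and -0.93 on the 1-month ones, a fall of 1.29 ± 0.17 (limma adjusted p = 0.00026). In wild type it lay at -2.29, -2.35, -1.85 and -1.78 at 1 year and at -1.12, -1.42, -1.40 and -1.44 at 1 month, a fall of 0.73 ± 0.17 (limma adjusted p = 0.0103). The ages did not overlap in either genotype.

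**Figure D3:**
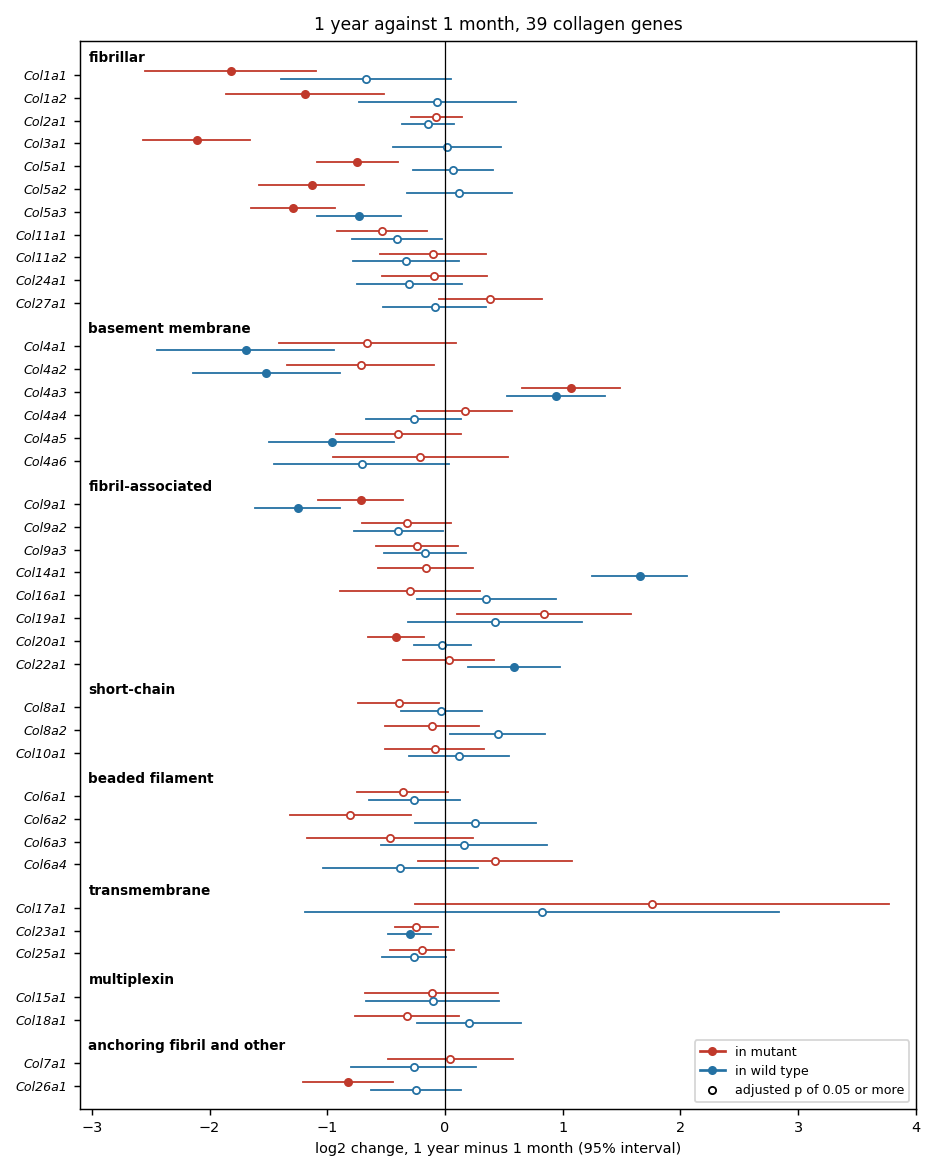
Log2 change of 1 year over 1 month for the 39 tested collagen genes by class, in the mutant (red) and in wild type (blue), with 95% intervals from limma; filled points passed an adjusted p of 0.05. The 6 filled red points of the fibrillar class lie left of 0, and the filled blue points left of 0 include Col4a1, Col4a2, Col4a5 and Col9a1.

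In the mutant 1 of the 6 basement membrane genes rose with age and 0 fell, while in wild type 1 rose and 3 fell. Of all genes, 3.77% were called higher with age in the mutant, and 7.31% higher and 5.05% lower in wild type. Col4a1 and Col4a2 encode the chains of the most widespread type IV collagen. Neither passed in the mutant. Col4a1 lay at -0.55, -0.62, -0.06 and 0.39 on the 1-year mutant arrays (-0.66 ± 0.35, limma adjusted p = 0.306). Col4a2 lay at -0.07, -0.19, 0.18 and 0.37 on the 1-year and at 0.19, 0.77, 0.39 and 1.79 on the 1-month mutant arrays (-0.72 ± 0.29, limma adjusted p = 0.175). In wild type both fell. Col4a1 lay at -0.40, -0.73, -0.53 and -0.51 on the 1-year wild-type arrays, below every 1-month wild-type array, and fell by 1.69 ± 0.35 (3.23-fold, limma adjusted p = 0.00566). Col4a2 lay at -0.03, -0.14, -0.21 and 0.22 on the 1-year and at 0.89, 1.90, 1.61 and 1.51 on the 1-month wild-type arrays, and fell by 1.52 ± 0.29 (limma adjusted p = 0.00334). The interaction was not called for either gene (1.03, limma adjusted p = 0.484, and 0.80, limma adjusted p = 0.529).

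Lens RNA also differed with age. In the mutant the summed signal of 6 lens genes spanned 6.88 to 611 at 1 year and 61.2 to 1056 at 1 month, and 0 of them were called. In wild type 3 of the 6 were called lower with age and all 6 did not overlap, with sums of 80.4, 1.11, 14.4 and 68.0 at 1 year and 479 to 663 at 1 month. Of all genes, 5.05% were called lower with age in wild type and 9.71% did not overlap in that direction. The array with the highest lens sum among the 1-month mutants, replicate 4, also had the highest Col4a1, and replicate 1 had the lowest of both. Among the 1-year mutants replicates 3 and 4 had the higher lens sums and the higher Col4a1 levels. Among the 1-month wild types the order differed, since replicate 4 had the lowest lens sum and the second highest Col4a1, and replicate 1, with the lowest Col4a1, had the second lowest sum. The part of lens tissue in the age changes was not tested.

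**Figure D4:**
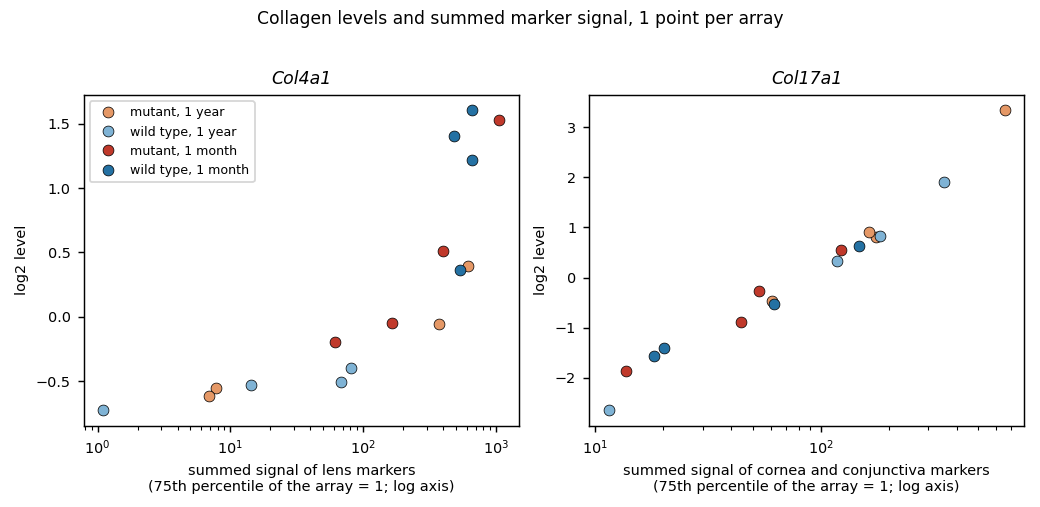
Level of Col4a1 against the summed signal of 6 lens genes (left) and of Col17a1 against that of 4 cornea and conjunctiva genes (right), 1 point per array, with sums on a log axis where the 75th percentile of the array is 1. The 1-year wild-type arrays lie at low lens sums and low Col4a1, and the 1-year mutant replicate 2 and 1-year wild-type replicate 3 lie at the upper and lower ends for Col17a1.

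The starts of Col4a1 and Col4a2 are shown because they lie head to head. In RefSeq's GRCm38.p6 windows the annotated starts are 21 bases apart, with the first bases of both genes overlapping. The windows share 78 bases, in capitals, read on opposite strands. Col4a1 is at chr8:11312777-11313076 (minus strand) and Col4a2 at chr8:11312555-11312854 (plus strand).
Col4a1: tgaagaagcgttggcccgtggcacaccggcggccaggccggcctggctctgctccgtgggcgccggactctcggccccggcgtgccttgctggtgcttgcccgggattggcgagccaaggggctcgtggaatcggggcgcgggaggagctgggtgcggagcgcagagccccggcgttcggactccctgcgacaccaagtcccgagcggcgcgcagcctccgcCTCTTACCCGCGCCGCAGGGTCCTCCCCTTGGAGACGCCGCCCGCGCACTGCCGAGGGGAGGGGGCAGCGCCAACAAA
Col4a2: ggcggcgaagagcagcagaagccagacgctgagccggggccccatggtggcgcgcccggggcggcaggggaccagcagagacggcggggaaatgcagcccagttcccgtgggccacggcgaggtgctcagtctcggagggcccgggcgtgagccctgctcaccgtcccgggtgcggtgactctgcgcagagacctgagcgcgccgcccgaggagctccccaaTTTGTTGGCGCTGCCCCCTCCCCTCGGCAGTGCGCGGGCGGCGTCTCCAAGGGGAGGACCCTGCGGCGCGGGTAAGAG
The changes of Col4a1 beside Col4a2 were -0.70 and -0.69 for mutant over wild type at 1 month, 0.33 and 0.11 at 1 year, -0.66 and -0.72 for age in the mutant, and -1.69 and -1.52 in wild type. In RefSeq's gene order 8 pairs of collagen genes are neighbours. Of the pair Col3a1 and Col5a2 both rose in the mutant at 1 month, and in the next pair Col4a3 rose with age in wild type while its neighbour Col4a4 did not pass (-0.27). Of the pair Col9a1 and Col19a1, Col9a1 fell with age in both genotypes while Col19a1 had 0.84 in the mutant and 0.43 in wild type and did not pass. Of the pair Col6a2 and Col6a1 neither passed at 1 month (0.91 and 0.24).

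Col4a3, a chain of the type IV collagen of kidney and inner ear, rose with age in both genotypes. It lay at -1.02, -1.09, -0.87 and -1.16 on the 1-year mutant arrays and at -2.23, -2.18, -2.19 and -1.83 on the 1-month mutant arrays (1.07 ± 0.19, limma adjusted p = 0.00375). In wild type it lay at -1.12, -0.83, -1.45 and -0.43 at 1 year and at -2.37, -1.74, -1.79 and -1.69 at 1 month (0.94 ± 0.19, limma adjusted p = 0.00541). The ages did not overlap in either genotype. Col4a5, its partner chain, lay at -0.99, -1.19, -1.1 and -0.89 on the 1-year wild-type arrays and at -0.74, 0.16, 0.04 and 0.21 on the 1-month ones, and fell by 0.96 ± 0.25 (limma adjusted p = 0.0201). The 1-month wild-type replicate 1 stood apart below the other 3. The Col4a5 call was kept in 4 of 8 fits that left out 1 array. Col4a4 and Col4a6 did not pass with age in either genotype (0.17 and -0.21 in the mutant, -0.27 and -0.71 in wild type).

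**Figure D5:**
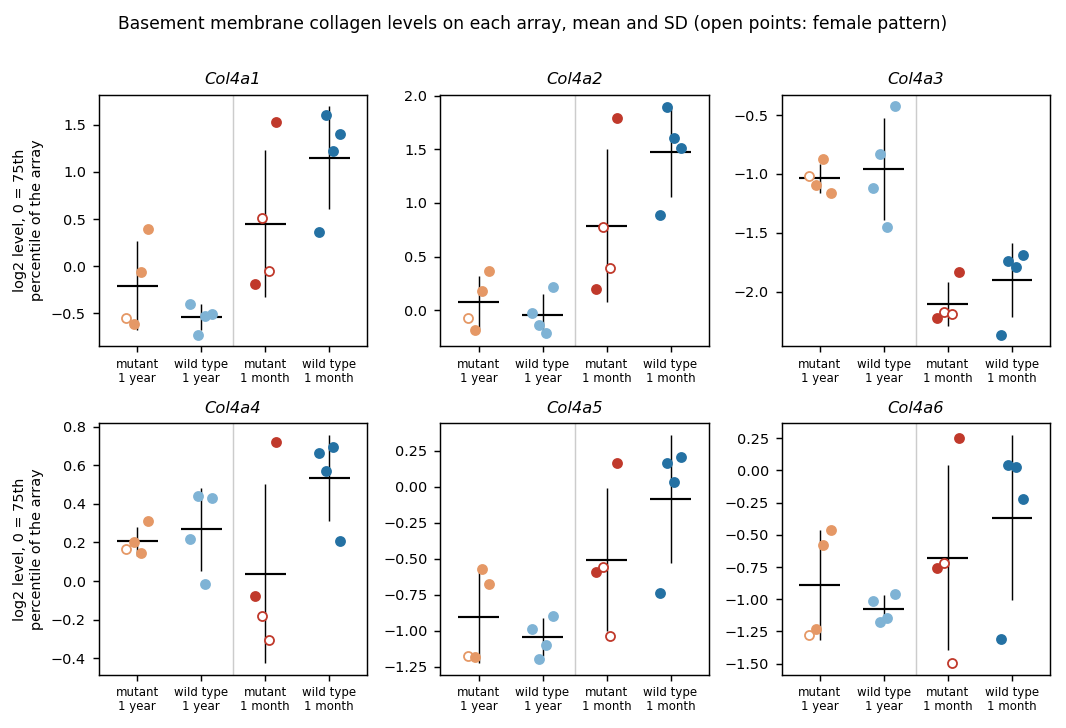
Levels of the 6 basement membrane collagen genes on each array (log2, 0 = 75th percentile of the array), with the group mean as a bar and the SD as a line, 4 arrays per group; open points are arrays of female pattern. Col4a3 is higher in both 1-year groups, and the 1-month groups spread widely for Col4a1, Col4a5 and Col4a6.

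Among the fibril-associated genes, Col14a1 had -0.16 with age in the mutant, where it was already high at 1 month. In wild type it rose by 1.65 ± 0.19 (limma adjusted p = 4.46e-05) and its second probe by 1.02 (limma adjusted p = 0.0027 over all probes). Col22a1, found at tissue junctions, lay at -1.54, -1.61, -1.63 and -1.08 on the 1-year and at -1.73, -2.10, -2.14 and -2.23 on the 1-month wild-type arrays, and rose by 0.59 ± 0.18 (limma adjusted p = 0.049). This call was kept in 1 of 8 fits that left out 1 array. In the mutant Col22a1 had 0.03, with -1.87 to -1.26 at 1 year and -2.0 to -1.28 at 1 month. Col20a1, a minor member of the class, lay at -0.82, -1.21, -0.85 and -1.0 on the 1-year and at -0.64, -0.74, -0.39 and -0.46 on the 1-month mutant arrays, and fell by 0.42 ± 0.11 (limma adjusted p = 0.0387). That call was kept in 3 of 8 such fits, and in wild type Col20a1 lay at -0.84 to -0.78 at 1 year and -0.97 to -0.53 at 1 month (-0.02).

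Col9a1, a type IX chain that is made by the ciliary epithelium for the vitreous, fell with age in both genotypes. In the mutant it lay at 0.63, 0.67, 1.13 and 0.96 at 1 year and at 1.64, 1.75, 1.09 and 1.77 at 1 month, and fell by 0.72 ± 0.17 (limma adjusted p = 0.0195). In wild type it lay at 0.51, 0.88, 0.71 and 0.92 at 1 year and at 1.69, 2.07, 2.26 and 2.0 at 1 month, and fell by 1.25 ± 0.17 (limma adjusted p = 0.000204). The ages overlapped through replicate 3 in the mutant, where the call was kept in 4 of 8 fits that left out 1 array, and stood apart in wild type. A second Col9a1 probe had -0.03 in the mutant and -0.19 in wild type and did not pass, so the fall rests on 1 of the 2 probes. Col9a2 and Col9a3 did not pass with age (-0.32 and -0.24 in the mutant, -0.40 and -0.17 in wild type).

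In the remaining classes 2 genes were called with age. Col26a1, a secreted protein with short collagen stretches, lay at -1.33, -2.17, -2.01 and -2.16 on the 1-year and at -0.91, -1.0, -1.09 and -1.39 on the 1-month mutant arrays, and fell by 0.82 ± 0.18 (limma adjusted p = 0.0118). In wild type it lay at -1.83, -1.45, -1.70 and -1.28 at 1 year and at -1.2, -1.30, -1.51 and -1.28 at 1 month and did not pass (-0.24). The mutant ages overlapped through 1-year replicate 1 and 1-month replicate 4. The transmembrane gene Col23a1 lay at -0.20, -0.19, -0.13 and -0.20 on the 1-year and at -0.08, 0.21, 0.16 and 0.19 on the 1-month wild-type arrays, and fell by 0.30 ± 0.08 (limma adjusted p = 0.0314), a call kept in 2 of 8 fits that left out 1 array. In the mutant it lay at -0.23 to 0.04 at 1 year and 0.08 to 0.28 at 1 month (-0.24, limma adjusted p = 0.108). The short-chain, beaded filament and multiplexin classes held no gene called with age, and Col6a2 came nearest in the mutant (-0.80 ± 0.24, limma adjusted p = 0.0609), where it passed with normexp background correction (-0.71, limma adjusted p = 0.0495).

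Of the 75 partners tested in the 6 lists, 1 was called higher and 6 lower with age in the mutant and 18 higher and 7 lower in wild type. That is 9.33% of them in the mutant and 33.3% in wild type, beside 6.7% and 12.4% of all genes. Of 21 modification and folding genes Serpinh1 (-0.72 ± 0.15) and Plod1 (-0.51 ± 0.10) fell in the mutant and 0 rose. In wild type 5 of the 21 rose, among them Crtap, part of the prolyl 3-hydroxylase complex (0.73 ± 0.16), Serpinh1 (0.60 ± 0.15) and Fkbp14, a folding enzyme (0.30 ± 0.08). Of the fibril-binding genes 4 of 12 rose in wild type, among them Lum (1.81 ± 0.27), Bgn (0.84 ± 0.16) and Dcn (0.88 ± 0.21), which bind fibril surfaces, with Fn1 at 0.56. Sparc, a matrix protein that binds collagen, fell in both genotypes (-0.90 ± 0.12 in the mutant and -0.92 ± 0.12 in wild type). Its limma adjusted p was 0.000356 in the mutant and 0.000166 in wild type.

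Of 12 cleavage and crosslinking genes Loxl2 (-0.73 ± 0.11) and Tll1 (-0.32 ± 0.08) fell in the mutant. In wild type 3 of the 12 rose and 3 fell, among them Tll1 (-0.57 ± 0.08) and Bmp1 (-0.61 ± 0.11), which fell, and Pcolce (1.06 ± 0.19), Adamts14 (0.57) and Loxl3 (0.47), which rose. The first 2 genes of each list ranged over -0.47 (P4ha1) to 0.42 (Dcn) in the mutant and -0.61 (Bmp1) to 0.88 (Dcn) in wild type. Of 9 receptor genes 0 were called in the mutant, and Ddr2 (1.14 ± 0.14), Mrc2 (1.19 ± 0.18) and Itga11 (0.84 ± 0.25) rose in wild type. Of 9 degradation genes Timp1, an inhibitor of collagenases, rose in the mutant (1.52 ± 0.24) and in wild type (2.18 ± 0.24), and Mmp14 (0.96 ± 0.16) and Timp2 (0.55 ± 0.10) rose in wild type. Of 12 basement membrane partners Nid2 fell in the mutant (-0.63 ± 0.15), and Lama1 (-0.57 ± 0.11), Agrn (-0.39 ± 0.09) and Nid1 (-1.29 ± 0.33) fell in wild type. The limma adjusted p of these genes ran up to 0.035 in the mutant and 0.0406 in wild type.

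In the 10 collagen genes with more than 1 usable probe, probes of the same gene never reached an unadjusted limma p under 0.05 in opposite directions. They differed in size for several genes, among them Col9a1 and Col14a1 above. In wild type the second Col4a6 probe had means of -1.37 at 1 year and -1.03 at 1 month, without overlap. The Col4a6 probe used changed by -0.71, with overlap. Of the Col4a4 probes at 1 month, the one used had means of 0.04 in the mutant and 0.53 in wild type. The others had -4.85 and -3.46 in the mutant and -4.63 and -3.21 in wild type. Another probe of Col25a1, a transmembrane collagen of neurons, lay at -4.64, -4.44, -4.51 and -4.39 on the 1-year mutant arrays and at -5.18, -5.71, -5.13 and -5.42 on the wild-type arrays. These did not overlap, with a change of 0.86 (limma adjusted p = 0.0563 over all probes), while the probe used had 0.03. The remaining Col25a1 probes overlapped, with 1-year means of -5.87 and -4.54 in the mutant and -6.12 and -4.51 in wild type. Another probe of Col23a1 fell with age in wild type by 0.41 (limma adjusted p = 0.00825 over all probes). Its change in the mutant was -0.14. The remaining Col23a1 probe had 0.03 with age in wild type and -0.16 in the mutant and did not pass.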

How the data were processed

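RNA of retina with RPE was hybridised to 16 single-colour Agilent arrays. Per the file headers, the deposited scanner output came from Agilent Feature Extraction 11.0.1.1, with a mouse design annotated on mm9, and its processed signal is a linear intensity after background subtraction. The deposited series matrix holds the authors' normalized log2 values, whose method is not given in the sources used here, and it served as an alternative. Sorted columns of that matrix differed from each other by at most 0.0022, every column had a median of 6.8761, and its values correlated with the scanner values at r of at least 0.9991. Direction and log2 scale follow from that, and its centring is unknown.

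Outlier spots (93 to 136 per array) were left out, log2 of the processed signal was taken minus log2 of the 75th percentile of the array's non-control spots, and spots of a probe were averaged. A probe stayed in when at least 4 of the 16 arrays had it well above background (49230 of 55681). Accessions were matched to RefSeq symbols, which named 27235 probes by 1 gene. The probe with the highest mean stood for its gene, and 19022 genes were tested. Limma 3.58.1 in R 4.3.3 fitted 4 group means to the 16 arrays, with 5 contrasts and Benjamini-Hochberg adjustment over all genes, and a gene was called at an adjusted p under 0.05. The script was tested on simulated data. At most 2 spots per array were saturated, and the number of arrays limits the precision. The labels do not say whether replicates came from separate animals. The p-values compare each difference with the spread between these arrays, and whether they hold between animals is not known.

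The collagen members, the lists of partners and markers, and the tests were chosen with earlier results of these data known. All 39 tested collagens could be named. From each of the 6 lists of partners the first 2 listed genes were named (by their range after 1 month), with up to 3 further called genes of the smallest adjusted p in each comparison. Alternatives were quantile normalization, the authors' deposited values, normexp background correction with an offset of 50 on the median signal in place of the planned mean signal, which was not used here, all probes or a filter of 8 arrays, the gene's probes averaged, slide, array row or female pattern as a term, each slide alone, only the groups compared, leaving out the arrays of female pattern, a replicate block, and leaving out each array in turn. One gene of the rod list is not reported here.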

Additional observations from a re-analysis of the deposited data

Results flagged for a closer look

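Across 156 sets of 4 arrays (39 collagen genes in 4 groups), 10 values stood apart from the other 3 arrays of their group, with a gap above Dixon's 95% critical value for 4 arrays. Chance marks about 1 in 20 such groups. Of the 10 values 2 lay in the 1-year mutants, 2 in the 1-year wild types, 2 in the 1-month mutants and 4 in the 1-month wild types, where all 4 were replicate 1. Among the 1-year mutants Col6a2 was low on replicate 3 (-2.11, others -1.35 to -1.22) and Col6a3 high on replicate 4 (1.04, others 0.13 to 0.28). Among the 1-year wild types Col18a1 was low on replicate 2 (1.93, others 2.33 to 2.39) and Col20a1 high on replicate 3 (-0.78, others -0.84 to -0.83). Among the 1-month mutants Col4a3 (-1.83, others -2.23 to -2.18) and Col9a3 (-2.17, others -2.52 to -2.46) were high on replicate 4. On replicate 1 of the 1-month wild types Col11a1 (-0.98, others -0.60 to -0.52), Col23a1 (-0.078, others 0.16 to 0.21) and Col4a3 (-2.37, others -1.79 to -1.69) were low and Col5a3 (-1.12, others -1.44 to -1.40) was high.

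The genotype effect differed between the ages, by the limma interaction, for Col3a1 (-2.13, limma adjusted p = 0.00678) and Col14a1 (-1.82, limma adjusted p = 0.0087). The mutant was above wild type at 1 month for both genes. At 1 year no change was called for either. The 2 differences rest on different groups: Col3a1 was high in the 1-month mutants and Col14a1 low in the 1-month wild types, each beside the other 3 groups.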

How the results depend on the processing

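No called collagen gene changed sign under any alternative run. The counts of collagen genes called moved by over 1.5 times with each slide alone, at 1 month (0 on slide 1, 1 on slide 2), for the difference between ages (0 and 0), with age in the mutant (0 and 1) and with age in wild type (0 and 4). Each slide alone leaves 2 arrays per group. Without the 3 arrays of female pattern the counts were 2 at 1 month (Col3a1 and Col14a1), 0 for the difference and 3 with age in the mutant. This leaves fewer arrays. With female pattern as a covariate all 5 calls at 1 month were kept. With slide as a block 1 gene, Col8a1, was called at 1 year. Leaving out each array in turn gave 5 to 7 calls at 1 month, 0 to 0 at 1 year, 2 to 3 for the difference, 7 to 9 with age in the mutant and 6 to 9 with age in wild type. All 5 calls at 1 month were kept in 8 of 8 such fits. At 1 month Col6a2 passed with quantile normalization (limma adjusted p = 0.0335) and with the authors' deposited values (0.0336), alternatives that are close to the same. Col9a3 passed with array row as a covariate (limma adjusted p = 0.0389). With age in wild type Col1a1 and Col11a1 passed without wild-type 1-year replicate 4, and in the mutant Col19a1 passed without 1-month replicate 2, Col6a2 with normexp background correction and Col11a1 with only the groups compared (limma adjusted p = 0.0262). The replicate block gave 5, 0, 2, 9 and 9 calls at 1 month, at 1 year, for the difference, with age in the mutant and with age in wild type. The labels give no pairing of same-numbered arrays. Correlations of their deviations were -0.535 to 0.061 between genotypes at 1 month, -0.027 to 0.16 at 1 year, -0.136 to 0.173 between ages in the mutant and -0.398 to -0.058 in wild type. Signal limits Col13a1, Col28a1, Col6a5 and Col6a6, which were not tested, and 4 arrays per group limit the rest.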
